A study of Homo sapiens with 12 samples.

Results

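Notch signalling was followed here through 10 genes in SBC5, a human cell line grown from a small cell lung cancer: the target genes HES1 and HEY1, the receptors NOTCH1, NOTCH2 and NOTCH3, the ligands DLL1, DLL3, JAG1 and JAG2, and RBPJ, the DNA-binding factor of the pathway. The genes were matched by symbol among 60605 genes, and all 10 were found. They were selected on measured values, namely the higher HES1 level in the combination of olaparib and radiation than in vehicle, so combination versus vehicle is described for these 10 without a p-value. The groups were the combination of 1 µM olaparib, a drug that blocks PARP enzymes in DNA repair, with 4 Gy of gamma radiation (PARPi+4Gy, 3 libraries); radiation alone at 4 Gy with the solvent dimethyl sulfoxide (DMSO+4Gy, 3 libraries); olaparib alone at 1 µM (PARPi+0Gy, 3 libraries); and vehicle (DMSO+0Gy, 3 libraries). Olaparib or solvent was given 2 hours before irradiation, the cells are labelled WT in every group, and total RNA was collected after 3 days. All 12 libraries are of a single cell line, so differences are within that line.

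In Notch signalling a Delta or Jagged ligand on the surface of 1 cell binds a Notch receptor on its neighbour, which is then cut so that its intracellular part moves to the nucleus. There it joins RBPJ, which otherwise holds target genes silent, and switches on the HES and HEY genes, whose proteins are themselves transcriptional repressors. In small cell lung cancer the pathway is known for opposing the neuroendocrine state, and DLL3, an unusual ligand that inhibits Notch within the cell, is known as a surface protein of neuroendocrine tumours.

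Library totals ran from 14.3 to 38.8 times 1000000 counts. The libraries olaparib 2, olaparib 3 and radiation 3 stood apart: 404 olfactory receptor genes, which are normally silent outside the nose, summed to 920.2 to 2098 CPM (counts per 1000000 counts) in these 3, against 354.7 to 501.4 CPM in the other 9. Comparisons therefore used the 9 (3 combination, 2 radiation, 1 olaparib and 3 vehicle), and results with all 12 are given beside them. The neuroendocrine markers INSM1, CHGA and GRP were at or near 0 in SBC5 (0 to 0.538 CPM), whereas YAP1, a marker of a non-neuroendocrine subtype, had 84 to 124 CPM, SYP 16.4 to 27.3 CPM and UCHL1 47.4 to 59.1 CPM. Of the 11 small cell lung cancer markers together, the summed level was 151 to 177 CPM in the combination, 173 to 176 CPM in radiation, 193 CPM in olaparib and 200 to 215 CPM in vehicle. Most of this sum was YAP1 and UCHL1, and it mixes markers of different subtypes. YAP1 itself, picked out here after its value was seen, was lower in the combination than in vehicle (log2 -0.41, SE 0.0783, edgeR adjusted p = 0.000147). In the same comparison SYP had -0.41 (SE 0.138, adjusted p = 0.0688) and UCHL1 -0.12 (SE 0.0959, adjusted p = 0.688), and neither passed. Among markers of other cells, the sum of 4 endothelial genes was at most 3.53 CPM, that of 6 airway and alveolar genes at most 3.80 CPM with KRT5 at 0 counts, and that of 5 fibroblast genes 15.7 to 21.0 CPM. The 6 leukocyte markers summed to 81.6 to 101 CPM in the combination, 82.8 to 91.5 CPM in radiation, 95.3 CPM in olaparib and 81.7 to 98.9 CPM in vehicle, of which the lysosomal gene CD68 made 78.1 to 100 CPM. Whether these markers have a part in the Notch results was not tested. In bulk RNA, fewer cells of a type and less RNA per cell cannot be told apart.

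The upstream sequences of HES1, NOTCH2 and JAG1 are shown because these genes differed between the combination and vehicle, 2 of them upward and 1 downward. Each is the 250 bases before the RefSeq transcription start (GRCh38.p14), 5′ to 3′ on the gene's strand, with capitals marking TGGGAA or its reverse complement TTCCCA, the core of the RBPJ binding motif.
HES1, chr3:194135898-194136147, + strand: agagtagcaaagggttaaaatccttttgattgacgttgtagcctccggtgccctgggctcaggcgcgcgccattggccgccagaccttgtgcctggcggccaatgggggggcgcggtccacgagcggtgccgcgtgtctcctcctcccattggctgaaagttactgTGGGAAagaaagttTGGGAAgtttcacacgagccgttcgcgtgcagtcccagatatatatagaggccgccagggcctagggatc
NOTCH2, chr1:120069663-120069912, - strand: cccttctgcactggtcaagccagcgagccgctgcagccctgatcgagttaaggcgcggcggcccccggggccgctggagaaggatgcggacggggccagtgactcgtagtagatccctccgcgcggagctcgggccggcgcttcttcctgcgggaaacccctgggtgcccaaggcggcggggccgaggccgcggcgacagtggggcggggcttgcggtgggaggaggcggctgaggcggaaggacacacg
JAG1, chr20:10674000-10674249, - strand: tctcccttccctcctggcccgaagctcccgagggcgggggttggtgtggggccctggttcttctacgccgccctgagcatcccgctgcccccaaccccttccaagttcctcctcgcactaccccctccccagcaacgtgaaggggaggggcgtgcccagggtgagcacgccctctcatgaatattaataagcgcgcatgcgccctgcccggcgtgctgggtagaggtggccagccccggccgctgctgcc
The HES1 window held 2 matches, with first bases at -84 and -70 from the start and both on the gene's strand. Among 34788 distinct windows of the same length in the RefSeq promoter table, 20.8% held at least 1 match and 2.88% at least 2. The HES1 window also held 3 matches to CACNAG on either strand, the N box that HES1 protein itself binds, at -165, -132 and -58, none of which overlaps an RBPJ match. At least 2 N box matches were found in 6.30% of windows. The NOTCH2 and JAG1 windows held neither motif. The table had a promoter for 7 of the 10 genes. HEY1, which also differed between the combination and vehicle, had none there, nor had DLL1 or DLL3. Of the others shown in the map of motif matches, a window at the second of the 5 RBPJ starts held 2 RBPJ core matches, and those of NOTCH1 and JAG2 held none.

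**Figure D1:**
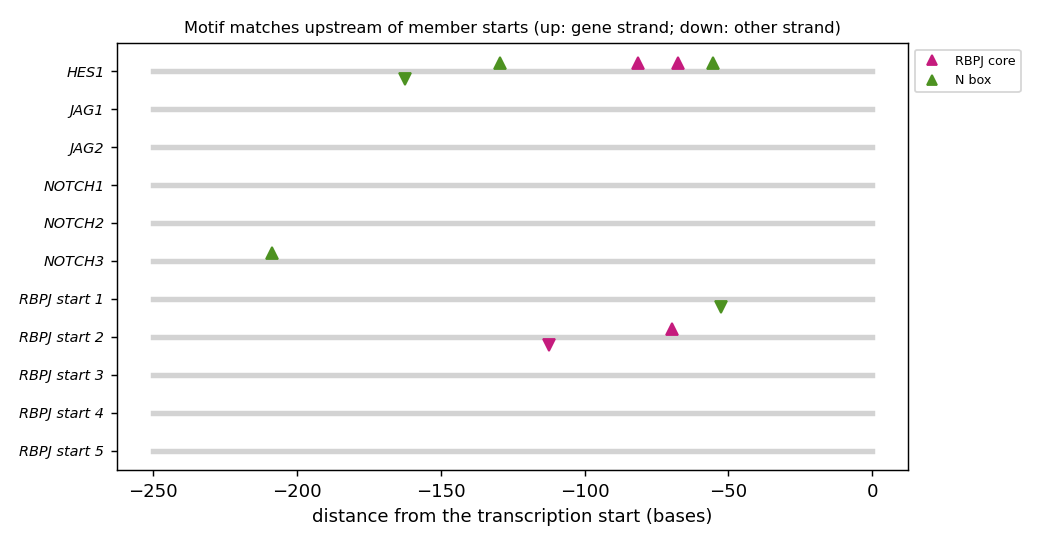
Matches to the RBPJ core and to the N box in the 250 bases before each RefSeq start of 7 Notch genes, by distance from the start (x axis, in bases), with upward triangles on the gene's strand and downward ones on the other. HES1 has 2 RBPJ core and 3 N box matches, and most other windows have none.

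HES1, a repressor of neuronal genes and a direct Notch target, was the member that differed most. Its scaled counts were 8.82, 8.20 and 10.3 CPM in combination 1, 2 and 3, against 5.93 and 6.82 CPM in radiation 1 and 2, 3.76 CPM in olaparib 1, and 3.37, 3.36 and 3.30 CPM in vehicle 1, 2 and 3. Every combination library lay above every radiation library, and every radiation library above every vehicle library. The means were 9.09 ± 1.06 CPM in the combination (SD, n = 3), 6.38 ± 0.629 CPM in radiation (SD, n = 2) and 3.34 ± 0.0391 CPM in vehicle (SD, n = 3). The combination was thus 2.72-fold above vehicle (log2 1.44, SE 0.246), the difference for which the gene was chosen. Of the libraries set apart, radiation 3 had 5.86 CPM, above vehicle and just below the other radiation libraries, and olaparib 2 and 3 had 4.06 and 2.79 CPM, on either side of vehicle. These values rest on 181 to 216 counts in the combination libraries and 86 to 106 counts in the vehicle libraries.

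The selection also used the vehicle levels of HES1, which are the baseline for radiation alone and olaparib alone, so their p-values for HES1 are not independent of it. HES1 was 1.91-fold higher in radiation (log2 0.93, SE 0.268), which did not pass the threshold in edgeR's quasi-likelihood test (adjusted p = 0.0663, unadjusted p = 0.00088; higher in 2 of 2 libraries). It passed with DESeq2 (adjusted p = 0.0204) and with library size only (adjusted p = 0.0169). With all 12 libraries the change was 0.90 (adjusted p = 0.934). Olaparib alone, with the single library olaparib 1, stood at a log2 change of 0.17 from vehicle (SE 0.342, adjusted p = 1). Combination versus radiation had a log2 difference of 0.51 (SE 0.269, adjusted p = 0.557), and since the combination libraries were those in which HES1 was known to be high, this is given as a description. By group mean of the 9 libraries, HES1 thus ran from the combination through radiation to olaparib, which is 1 library, and vehicle. Neither radiation nor olaparib passed against vehicle in the main fit. The step from the combination to radiation is a description only, and radiation was not tested against olaparib.

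**Figure D2:**
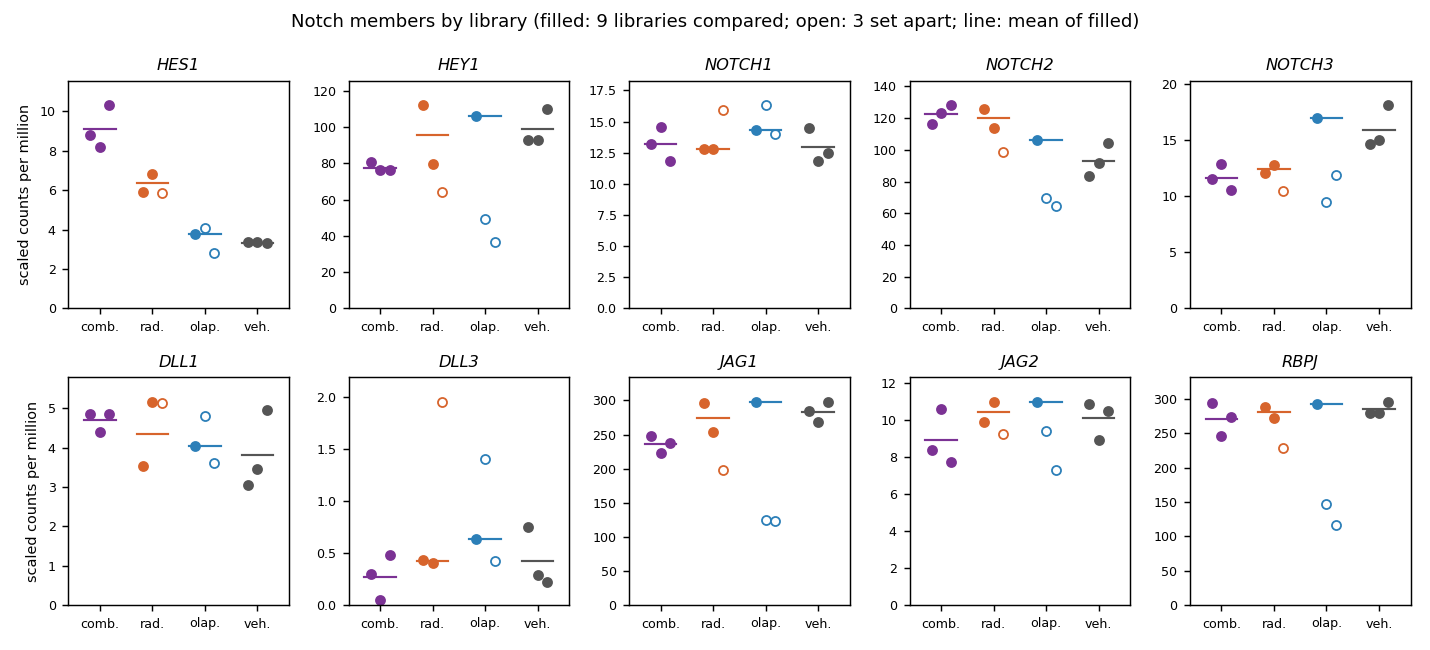
Scaled counts in CPM (y axes, starting at 0) of the 10 Notch genes in the combination (comb.), radiation (rad.), olaparib (olap.) and vehicle (veh.) libraries, with filled points for the 9 libraries compared, open points for the 3 set apart and lines for the mean of the filled points. HES1 lies at 8.20 to 10.3 CPM in the combination and at 3.30 to 3.37 CPM in vehicle, while JAG1 and RBPJ are lowest in olaparib 2 and olaparib 3.

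HEY1, the other target gene and also a repressor, was lower in the combination than in vehicle, where HES1 was higher. It had 80.8, 76.2 and 76.2 CPM in the combination, against 112 and 79.5 CPM in radiation, 106 CPM in olaparib 1 and 93.1, 93.1 and 110 CPM in vehicle. All 3 combination libraries were below all 3 vehicle libraries, and the log2 change was -0.35 (SE 0.097). Against vehicle, radiation alone gave -0.05 (SE 0.108, edgeR adjusted p = 0.959) and olaparib alone 0.10 (SE 0.135, adjusted p = 1). Combination versus radiation gave -0.30 (SE 0.108, adjusted p = 0.272). This last value depends on which radiation library is kept: it was -0.55 without radiation 2 (adjusted p = 0.00136) and -0.03 without radiation 1 (adjusted p = 0.992). The libraries set apart held less HEY1 than any of the 9, with 64.2 CPM in radiation 3, 49.1 CPM in olaparib 2 and 36.5 CPM in olaparib 3. Their high olfactory receptor background may bear on these values, which was not tested.

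Among the receptors, NOTCH2 was the one that passed the test as higher in radiation than in vehicle. It had 116, 123 and 128 CPM in the combination, 126 and 114 CPM in radiation, 106 CPM in olaparib 1 and 83.4, 91.5 and 104 CPM in vehicle. The irradiated libraries of both kinds lay above the vehicle libraries. In radiation versus vehicle the log2 change was 0.36 (SE 0.089, edgeR adjusted p = 0.0153; higher in 2 of 2 libraries), and in combination versus vehicle it was 0.40 (SE 0.0805). Combination and radiation were close to each other (0.03, SE 0.0897, adjusted p = 0.962). The call in radiation was lost without radiation 1 (0.29, adjusted p = 0.337), vehicle 1 (0.29, adjusted p = 0.178) or vehicle 2 (0.35, adjusted p = 0.0964), with the libraries of radiation and vehicle alone (0.37, adjusted p = 0.0877) and with all 12 libraries (0.29, adjusted p = 0.969). Radiation 3, set apart, had 98.7 CPM, within the vehicle range. Olaparib 2 and 3, also set apart, had 69.8 and 64.8 CPM, below that range.

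The NOTCH2 estimates were fractional in 12 of 12 libraries, as were those of NOTCH3, JAG2 and RBPJ. The human genome carries partial copies of the gene, the NOTCH2NL genes, with which reads can be shared. NOTCH2NLA averaged 48.7 CPM in the combination, 39.9 CPM in radiation and 38.9 CPM in vehicle, and NOTCH2NLC 96.5, 84.5 and 82 CPM in the same groups. In radiation versus vehicle their log2 changes were 0.04 (SE 0.117, edgeR adjusted p = 0.972) for NOTCH2NLA and 0.04 (SE 0.0914, edgeR adjusted p = 0.951) for NOTCH2NLC. In combination versus vehicle they were 0.32 (SE 0.105, adjusted p = 0.0563) and 0.23 (SE 0.0821, adjusted p = 0.0899). How the authors' counting split reads among these copies was not tested, so the NOTCH2 level is uncertain.

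NOTCH1 and NOTCH3 behaved differently. NOTCH1 had 13.2, 14.6 and 11.8 CPM in the combination, 12.8 and 12.8 CPM in radiation, 14.3 CPM in olaparib 1 and 14.5, 11.8 and 12.5 CPM in vehicle, so its groups overlapped. Its log2 change was 0.03 (SE 0.166) in the combination and -0.01 in radiation (SE 0.184, edgeR adjusted p = 0.997). NOTCH3 had 11.5, 12.9 and 10.6 CPM in the combination, 12.1 and 12.8 CPM in radiation, 17.0 CPM in olaparib 1 and 14.7, 15 and 18.1 CPM in vehicle. Of the 9 libraries, the 5 irradiated lay below the 4 unirradiated. This split was picked after the values were seen, and the share of all genes that separate in this way was not counted. Of those set apart, radiation 3 had 10.5 CPM, and olaparib 2 and 3, also unirradiated, had 9.51 and 11.9 CPM, within or below the irradiated range. In the 9 libraries the log2 change did not pass in radiation versus vehicle (-0.36, SE 0.181, edgeR adjusted p = 0.525). In combination versus vehicle it was -0.45 (SE 0.163).

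Of the ligands, JAG1, which encodes the transmembrane ligand Jagged 1, had 248, 223 and 237 CPM in the combination, 296 and 253 CPM in radiation, 298 CPM in olaparib 1 and 285, 269 and 297 CPM in vehicle. All 3 combination libraries lay below the other 6 of the 9, a split picked after the values were seen. Its share over all genes was not counted. Its log2 change was -0.26 in combination versus vehicle (SE 0.0701), -0.05 in radiation versus vehicle (SE 0.0782, edgeR adjusted p = 0.931) and -0.22 in combination versus radiation (SE 0.078, adjusted p = 0.24). The last passed without radiation 2 (-0.35, adjusted p = 0.025) and was -0.10 without radiation 1 (adjusted p = 0.902). In the libraries set apart JAG1 had 198 CPM in radiation 3 and 125 and 123 CPM in olaparib 2 and 3. HEY1, NOTCH2 and RBPJ were likewise lowest in olaparib 2 and 3, while NOTCH1 was not. These libraries had high olfactory receptor sums, and the part of that background was not tested.

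JAG2, the second Jagged ligand, had 8.38, 10.6 and 7.74 CPM in the combination, 9.93 and 11 CPM in radiation, 11 CPM in olaparib 1 and 10.9, 8.93 and 10.5 CPM in vehicle, with overlapping groups (-0.18 in combination versus vehicle, SE 0.192). DLL1, a Delta ligand that activates Notch on neighbouring cells, had 4.87, 4.39 and 4.85 CPM in the combination, 3.53 and 5.17 CPM in radiation, 4.05 CPM in olaparib 1 and 3.06, 3.45 and 4.96 CPM in vehicle (0.30 in combination versus vehicle, SE 0.289). Neither passed in radiation versus vehicle, olaparib versus vehicle or combination versus radiation. DLL3 was barely detected. It had 6, 1 and 10 counts in the combination, 13 and 11 in radiation, 24 in olaparib 1 and 19, 9 and 7 in vehicle, all under 1 CPM, and the SE of its log2 change was 1.08 in combination versus vehicle, so no difference was detectable at this depth. More DLL3 counts were seen in 2 of the libraries set apart, with 33 in radiation 3 and 37 in olaparib 2, whose olfactory receptor sums were also high; the part of that background was not tested.

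RBPJ, through which the receptors act, lay between 246 and 296 CPM in the 9 libraries, and its groups overlapped. It had 294, 246 and 274 CPM in the combination, 289 and 273 CPM in radiation, 293 CPM in olaparib 1 and 280, 280 and 296 CPM in vehicle. The log2 change was -0.07 in combination versus vehicle (SE 0.0691), -0.02 in radiation versus vehicle (SE 0.0772, edgeR adjusted p = 0.975) and 0.04 in olaparib versus vehicle (SE 0.0972, adjusted p = 1). In olaparib 2 and 3, set apart, RBPJ stood at 147 and 116 CPM, and the part of their high olfactory receptor background was not tested.

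**Figure D3:**
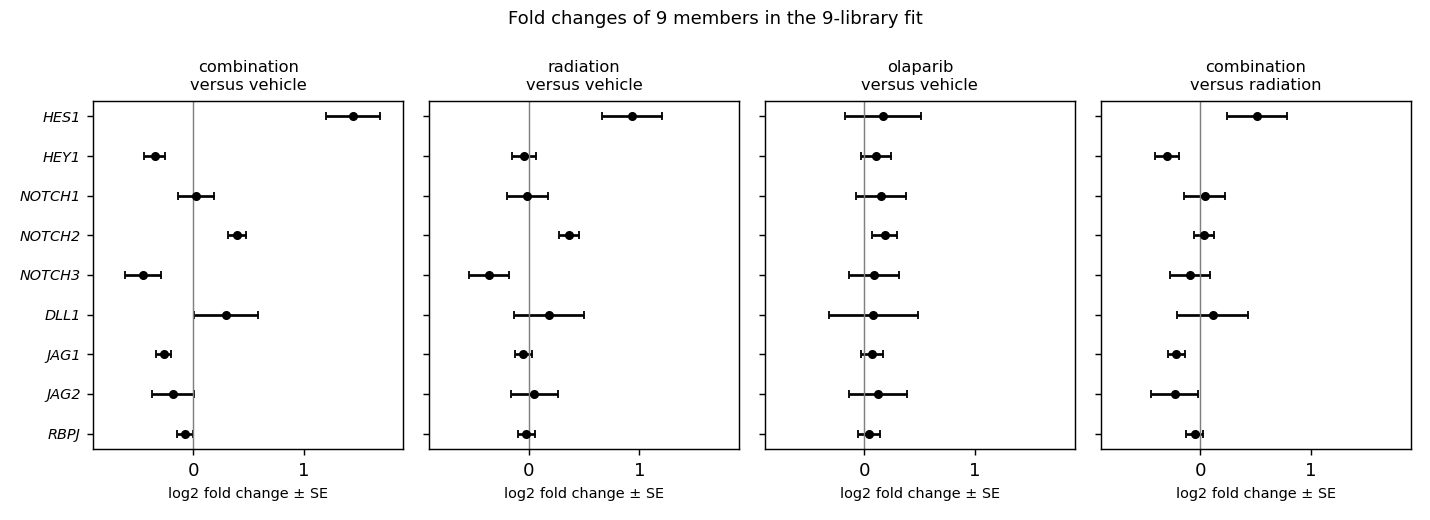
Log2 fold changes (x axis; bars are the SE) of 9 Notch genes in 4 comparisons of the 9 libraries; DLL3 is left out because its SE exceeds 1. HES1 lies at 1.44 in combination versus vehicle and 0.93 in radiation versus vehicle, and NOTCH2 at 0.40 and 0.36, while RBPJ lies near 0 in all 4.

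Counted together, 2 of the 10 genes (HES1 and NOTCH2) passed as higher and 2 (HEY1 and JAG1) as lower in combination versus vehicle, where 1.53% and 3.26% of the 30967 genes tested passed in these directions and 4.8% in either; since this comparison chose the set, nothing is read from that count. All 3 combination libraries were above all 3 vehicle libraries for 2 of the 10 (9.15% of all genes) and below them for 3 (10.4%). The median log2 change was -0.13 over the 10 and 0.02 over all genes. With all 12 libraries 0 of the 10 passed by edgeR (1 at an unadjusted p under 0.05), where 0.00314% of genes did. In radiation versus vehicle 1 of 10 passed as higher and 0 as lower, against 0.42% and 0.678% of all genes (1.1% in either direction); the libraries did not overlap upward for 2 (11.7% of all genes) and downward for 1 (13.5%). In olaparib versus vehicle edgeR called 0 of 10 (0 at an unadjusted p under 0.05, and 0 by DESeq2 or limma-voom), against 0.0678% of all genes (0.00969% higher and 0.0581% lower); olaparib 1 was above all vehicle libraries for 4 (24.4%) and below them for 0 (21.1%). In combination versus radiation edgeR called 0 of 10 (2 at an unadjusted p under 0.05, HEY1 and JAG1, and 0 by DESeq2 or limma-voom), against 0.568% of all genes (0.142% higher and 0.426% lower); libraries did not overlap upward for 1 (12.2%) and downward for 1 (11.9%). Comparisons with vehicle share its 3 libraries.

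The direction of small changes depended on scaling. With library size only, the median of all genes in combination versus vehicle moved to 0.22. HEY1 and JAG1 then stood at -0.145 and -0.064, RBPJ at 0.13, HES1 at 1.64 and NOTCH2 at 0.60. Relative to that median the changes were close to those given above. When each library was left out in turn, HEY1 ran from -0.388 to -0.261 and JAG1 from -0.302 to -0.231. With all 12 libraries and the log2 olfactory receptor sum as a covariate, HEY1 stood at -0.191, JAG1 at -0.127 and RBPJ at 0.048. The HEY1 and JAG1 calls were lost with library size only, with this covariate, and without combination 2 or vehicle 3. That of HEY1 was also lost in further settings. Since this comparison chose the genes, neither the calls nor their loss are read as a test. The HES1 change was 1.335 to 1.497 when each library was left out in turn, given as a description of the comparison on which the genes were selected.

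The rest of the pathway was read from a list of 73 genes, of which 64 had enough counts to test. In combination versus vehicle 0 of 64 were higher and 5 lower, against 1.53% and 3.26% of all genes, with a median log2 change of -0.04 beside 0.02 for all genes. The 5 were HDAC2, a histone deacetylase of corepressor complexes (300 ± 8.17 CPM in the combination and 405 ± 41.3 CPM in vehicle, SD, n = 3 each; log2 -0.43, SE 0.0697, edgeR adjusted p = 6.66e-06); MAML2, a coactivator that binds the Notch intracellular part and RBPJ (99.5 ± 11.1 and 133 ± 4.54 CPM in the same order; -0.42, SE 0.0793, adjusted p = 0.000139); ADAM10, the protease that makes the activating cut outside the membrane (222 ± 15.3 and 273 ± 11.4 CPM; -0.29, SE 0.0696, adjusted p = 0.0032); KAT2A, a histone acetyltransferase (16.1 ± 0.161 and 23.3 ± 1.2 CPM; -0.53, SE 0.137, adjusted p = 0.00802); and MYC, a growth regulator that Notch activates in T cells (16.5 ± 1.46 and 23.2 ± 2.55 CPM; -0.49, SE 0.139, adjusted p = 0.02). All combination libraries were below all vehicle libraries for each of the 5, as for 10.4% of all genes. With all 12 libraries 0 of the list passed (2 at an unadjusted p under 0.05), and with library size only 8 were higher and 1 lower. DESeq2 on the 9 libraries called 6, of which 1 was higher and 5 lower. The calls of ADAM10, MAML2, KAT2A and MYC were lost under library size only (log2 -0.333 to -0.096) and under the covariate on all 12 libraries (-0.406 to -0.212). The MYC call was lost without combination 3, vehicle 1 or vehicle 3 (-0.434, -0.462 and -0.433; adjusted p = 0.126, 0.0932 and 0.128) and with limma-voom (-0.486, adjusted p = 0.0714). That of KAT2A was lost without vehicle 2 (-0.491, adjusted p = 0.0649).

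By role, the genes lower in the combination were 1 of 9 for receptor cleavage (ADAM10), 2 of 8 coactivators (MAML2 and KAT2A), 1 of 14 corepressors (HDAC2) and 1 of 4 other target genes (MYC). None passed among 5 receptor glycosylation genes, 12 ubiquitin ligases and endocytic adaptors, 6 HES and HEY relatives, 2 ligands, the receptor NOTCH4 or 3 genes of the neural list with REST. In these groups 0, 3, 0, 1, 0 and 1 genes had an unadjusted edgeR p under 0.05. In the roles with a call, 3 of 9 receptor cleavage genes, 3 of 8 coactivators, 9 of 14 corepressors and 2 of 4 other target genes did. Of the whole list, 22 of 64 did. Over all 30967 genes 3.26% were called lower and 4445 genes had an unadjusted p under 0.05. With at most 1 or 2 called genes a role, and no test of a role, nothing particular to a role is read from these counts. NRARP and HEYL, which are other Notch targets picked here after their values were seen, did not pass. NRARP, a feedback inhibitor of the pathway, averaged 9.02 ± 1.54 CPM in the combination and 8.67 ± 0.342 CPM in vehicle (SD, n = 3 each), a log2 change of 0.06 that did not pass (SE 0.206, edgeR adjusted p = 0.967). HEYL averaged 12.8 ± 3.97 CPM in the combination and 11.6 ± 0.477 CPM in vehicle (0.14, SE 0.182, edgeR adjusted p = 0.863). Of the proneural genes on the list, NEUROG3 and ATOH1 had too few counts to test, and NEUROD1 averaged 0.741 ± 0.291 CPM in the combination and 1.89 ± 1.18 CPM in vehicle (-1.34, SE 0.592, adjusted p = 0.241).

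**Figure D4:**
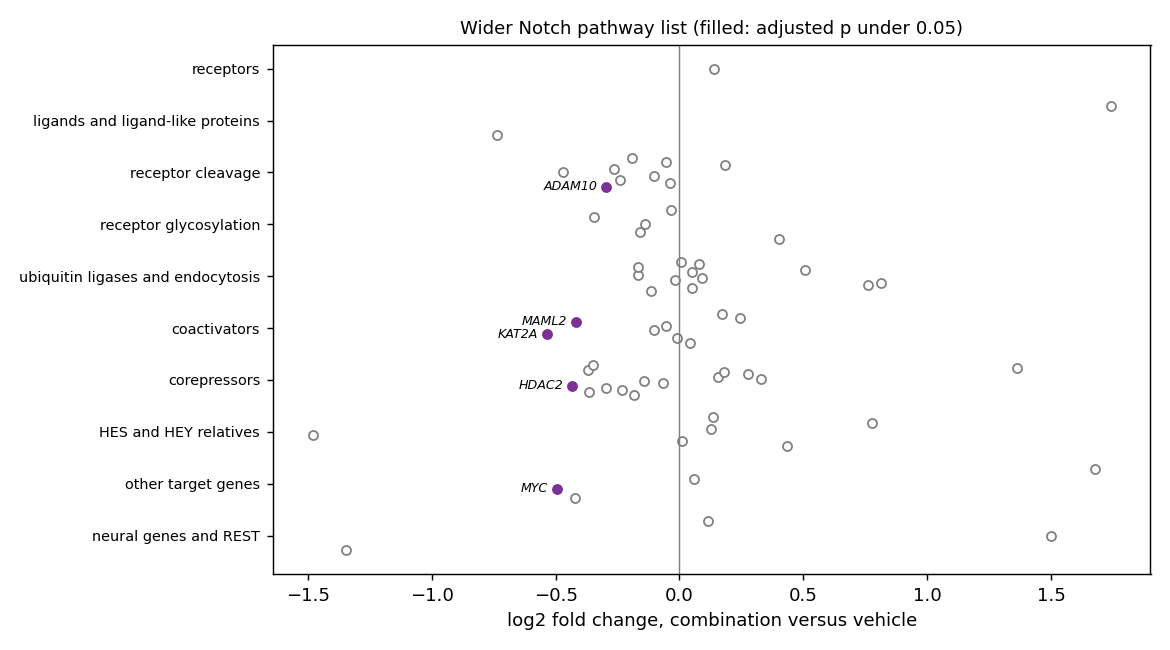
Log2 fold changes of combination versus vehicle (x axis) for the 64 tested genes of the wider Notch list, by role (y axis), each point a gene and filled where the adjusted p was under 0.05. The 5 filled points lie between -0.29 and -0.53, and no gene of the list is filled on the higher side.

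In radiation versus vehicle 2 of the 64 were lower and 0 higher, against 0.678% and 0.42% of all genes. POFUT1, which puts fucose on Notch receptors, averaged 26.4 ± 1.57 CPM in radiation (SD, n = 2) and 37.9 ± 4.25 CPM in vehicle (SD, n = 3; log2 -0.52, SE 0.124, edgeR adjusted p = 0.0116), and MAML2 averaged 105 ± 5.02 and 133 ± 4.54 CPM (-0.34, SE 0.0889, adjusted p = 0.0345). Neither call held when some libraries were left out, although the log2 changes stayed at -0.597 to -0.436 for POFUT1 and -0.386 to -0.275 for MAML2. That of POFUT1 was lost without radiation 1, radiation 2 or vehicle 2 (adjusted p = 0.0564, 0.18 and 0.151), and that of MAML2 without any library of either group or olaparib 1 (adjusted p = 0.0578 to 0.291). With all 12 libraries 0 passed by edgeR (5 at an unadjusted p under 0.05). In olaparib versus vehicle edgeR called 0 of 64 (3 at an unadjusted p under 0.05; DESeq2 1, limma-voom 0), and in combination versus radiation 0 of 64 (7 at an unadjusted p under 0.05; DESeq2 1, limma-voom 0). Over all 30967 genes 0.0678% and 0.568% were called in these comparisons, and 1034 and 2954 genes had an unadjusted p under 0.05, so a count of 0 says little about the list.

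The genes whose levels followed HES1 most closely over the 9 libraries were ranked by Pearson's r of log2 CPM among 11034 genes with a mean of at least 5 CPM. The highest were WSB1, a substrate receptor of a ubiquitin ligase (r = 0.99), XPOT, which exports transfer RNA from the nucleus (0.99), CARS1, the cysteinyl-tRNA synthetase (0.98), the deubiquitinase USP9X (0.98) and the Polycomb protein PHC3 (0.97). WSB1 had 328, 332 and 337 CPM in the combination, 290 and 304 CPM in radiation, 244 CPM in olaparib 1 and 230, 230 and 230 CPM in vehicle, the same order of groups as HES1. The lowest were the secretory granule protein SCG2 (-0.99), the mitochondrially encoded complex I subunit MT-ND3 (-0.99), the microtubule regulator STMN1 (-0.99), the actin regulator ABI2 (-0.98) and GCN1, which helps activate a stress kinase (-0.98). None is a Notch gene of the lists used here. Of the members, NOTCH2 had r = 0.83 with HES1 and DLL1 0.56, above 96.8% and 85.5% of the ranked genes. NOTCH3 had -0.90, JAG1 -0.79 and HEY1 -0.74, above 2.91%, 9.35% and 13.2% of them. JAG2 had -0.52, RBPJ -0.43, DLL3 -0.30 and NOTCH1 -0.12, above 26.6%, 31.6%, 38.9% and 49.1%. These values describe 9 libraries in 4 treatment groups, share their scaling and group differences, and carry no test.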

How the data were processed

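RNA from SBC5 cells in 4 groups of 3 libraries was sequenced from stranded total RNA libraries, per the labels' protocols. The authors deposited expected counts per Ensembl gene ID (estimated counts, 68.8% of values whole to within 1e-06), not scaled between libraries. The submitters' processing notes name kallisto 0.46.1 and DESeq2; which transcriptome release and build they used is not given in the sources used here. Counts of 44 pseudoautosomal rows were added to their partners, leaving 60605 genes, 60463 of them with a symbol in a gene name table, and estimates were rounded.

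The 9 libraries with low olfactory receptor sums were fitted with edgeR 4.0.16 in R 4.3.3 (default count filter, 30967 genes; TMM factors; a mean for every group; quasi-likelihood F-tests, robust; Benjamini-Hochberg adjustment over all genes, threshold 0.05). The lone olaparib library is assumed to vary like the others. Log2 fold changes are edgeR's, with a standard error (SE) found by dividing the change by F's square root. CPM are counts per 1000000 after TMM scaling. The 3 libraries set apart were put on the same scale through a fit of all 12 (31858 genes). Alternatives were all 12 libraries, with and without the log2 olfactory sum as a covariate, DESeq2's size factors, library size only, no count filter or a stricter one (1 CPM or more in 3 libraries), limma-voom (limma 3.58.1), DESeq2 1.42.0, only the groups compared, a block for the replicate number, and each library left out. The fit was run on simulated data for combination versus vehicle only, which says nothing on the comparisons with fewer libraries.

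The members, lists, libraries set apart and comparisons were chosen with earlier results of these data known. Genes named are the 10 members, called genes of the wider list (at most 12 per comparison, largest change first) and the 5 genes most and least like HES1; others are said to be picked later. The sources do not say whether replicates were separate cultures, so p-values measure the spread between libraries, and counts without molecular identifiers give counting error only.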

Additional observations from a re-analysis of the deposited data

Results flagged for a closer look

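Several Notch genes had values in the libraries left out of the comparisons (olaparib 2 and radiation 3) above the highest vehicle library. HES1 had 4.06 CPM in olaparib 2 and 5.86 CPM in radiation 3, against at most 3.37 CPM in vehicle. NOTCH1 had 16.3 CPM in olaparib 2 and 15.9 CPM in radiation 3, against at most 14.5 CPM. DLL3 had 1.40 CPM in olaparib 2 and 1.95 CPM in radiation 3, against at most 0.745 CPM. DLL1 had 5.15 CPM in radiation 3, against at most 4.96 CPM. These are single libraries whose olfactory receptor sums were high, and the part of that background in these values was not tested. With 3 or fewer libraries per group, no group was large enough to look for a single outlying library.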

How the results depend on the processing

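In combination versus vehicle, 1485 genes passed, against 1 with all 12 libraries, 829 with the olfactory covariate and 2594 with library size only (2275 higher and 319 lower); 1030 to 1716 passed when a library was left out. The wider Notch list gave 5, against 0, 2 and 9 in that order, 6 with DESeq2 (1 of them higher), and 4 to 7 when a library was left out. In radiation versus vehicle, 340 genes passed, against 0 with all 12 libraries, 194 with the covariate, 685 with library size only (560 higher and 125 lower), 190 with the compared groups alone, and 200 to 360 with a library left out. The list gave 2, against 0 with all 12, with the covariate and with the compared groups alone, 1 (lower) with DESeq2's size factors, limma-voom or the replicate block, 1 with library size only (higher, and neither of the 2), and 0 to 2 with a library left out. In olaparib versus vehicle, 21 genes passed, against 0 with all 12 libraries, 10 with the covariate, 39 with no filter or DESeq2, 49 with limma-voom, 37 with the compared groups alone, 43 with the replicate block, and 18 to 33 with a library left out; the list gave 0, against 1 with DESeq2. In combination versus radiation, 176 genes passed (44 higher and 132 lower, or 142 and 58 with library size only), against 0 with all 12, 28 with the covariate, 278 with no filter, 412 with DESeq2, 64 with the compared groups alone, 38 without radiation 1 and 447 without radiation 2; the list gave 0, against 2 with library size only, 1 with DESeq2, and 0 to 1 with a library left out. The cause of these shifts was not tested.

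Some members that did not pass changed sign. In combination versus vehicle, described without a p-value, JAG2 became 0.02 with library size only. RBPJ became 0.128 with library size only and 0.048 with the covariate. With a library left out NOTCH1 ran from -0.066 to 0.119 and DLL3 from -1.307 to 0.082. In radiation versus vehicle NOTCH1 became 0.103 with all 12 libraries, 0.066 with the covariate, 0.003 with DESeq2's size factors or DESeq2 and 0.095 with library size only; with the covariate and library size only HEY1 became 0.015 and 0.064, JAG1 0.026 and 0.062 and RBPJ 0.087 and 0.088. With a library left out the ranges were -0.077 to 0.076 for NOTCH1, -0.314 to 0.193 for HEY1, -0.167 to 0.074 for JAG1, -0.065 to 0.031 for RBPJ, -0.034 to 0.119 for JAG2, -0.102 to 0.433 for DLL1 and -0.29 to 0.708 for DLL3. In olaparib versus vehicle, with all 12 libraries (where the median of all genes was 0.3852), HEY1 became -0.624, NOTCH2 -0.212, NOTCH3 -0.317, JAG1 -0.639, JAG2 -0.123 and RBPJ -0.618 (-0.052 with the covariate), and DLL1 ran from -0.055 to 0.312 with a library left out. Without olaparib 1 that comparison could not be made on the 9 libraries. In combination versus radiation NOTCH1 became -0.075 with all 12 and -0.057 with the covariate, RBPJ 0.035 with all 12 and 0.04 with library size only, and NOTCH2 -0.028 with the replicate block; left-out ranges were -0.054 to 0.099 for NOTCH1, -0.065 to 0.108 for NOTCH2 and -0.138 to 0.385 for DLL1. Same-numbered libraries did not deviate together (r = -0.087 to 0.008 over 7 pairs), so the numbers were not taken as pairs. With the replicate block 1494, 367, 43 and 214 genes passed in the 4 comparisons in the order above.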
